A study of Homo sapiens with 6 samples.

Results

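Aminoacyl-tRNA synthetases and 2 scaffold proteins that hold some of them together make up the gene set described here. Its 37 genes were taken by symbol, under the current name or the older name without the final 1, from a table of 16781 genes: 19 encode cytosolic synthetases or their subunits, 16 encode mitochondrial synthetases, and 2, AIMP1 and AIMP2, are scaffolds. Caco-2, the source of the RNA, is a widely used line grown out of a human colon adenocarcinoma, and its RNA was read by paired-end sequencing of poly(A)-selected mRNA. Cells in which CBS had been knocked out by CRISPR/Cas9 (CBS KO) gave 3 libraries, and unmodified cells (WT) gave 3. CBS encodes cystathionine beta-synthase, which joins homocysteine and serine and can release hydrogen sulfide. A lentivirus brought Cas9, its guide and puromycin resistance into the CBS KO cells, which were then kept under puromycin for selection, while the labels give no such treatment for WT cells. Cells given the vector alone were not analysed here, and effects of the knockout, of infection and of selection cannot be told apart. The labels do not say whether the knockout line was a single clone or whether replicates were separate cultures, so p-values measure the spread between these libraries, which may be technical.

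A synthetase joins an amino acid to its matching tRNA with the energy of ATP, and so sets which amino acid a codon is read as. The cytosol and the mitochondrion make protein separately, and for most amino acids a different nuclear gene serves each. GARS1 and KARS1 are exceptions, since each gives both a cytosolic and a mitochondrial form, and EPRS1 carries the glutamate and the proline enzyme in a single chain. Several cytosolic synthetases sit together in the multi-synthetase complex, which AIMP1 and AIMP2 help to build. When amino acids run short, uncharged tRNA activates the kinase GCN2 (EIF2AK4), and the transcription factor ATF4 then raises the transcription of many cytosolic synthetase genes through the CARE element, a short promoter sequence that ATF4 binds with a C/EBP partner.

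Estimated counts summed to 12805180 to 14307287 per CBS KO library and to 16097680 to 16176745 per WT library. Levels appear as counts per 1000000 with TMM scaling, a trimmed mean of M values (CPM), which compare libraries but not genes, or as the authors' deposited transcripts per 1000000 (TPM), which also allow for transcript length. CBS itself averaged 22.8 ± 3.81 CPM in CBS KO and 50.8 ± 2.11 CPM in WT (SD, n = 3 each), 2.22-fold lower, so its mRNA was reduced and not absent. The 11 epithelial markers of Caco-2 summed to 7387 to 7683 TPM in CBS KO and 7822 to 8744 TPM in WT, with CDX1 alone at 0 or 1 reads per library. With TMM, 7 of the 10 tested epithelial markers rose and 2 fell (median 0.46), with EPCAM 2.12-fold and KRT20 5.54-fold higher and CDX2, an intestinal transcription factor, 3.83-fold lower, while with TPM 2 rose and 5 fell. The 12 markers of blood, vessel and stromal cells summed to 121 to 130 TPM in CBS KO and 121 to 136 TPM in WT, with 3 or 4 of them at 0 in every library. CD68 and COL1A1 made up most of these sums, averaging 80.6 and 39.9 TPM in CBS KO and 43.4 and 65.1 TPM in WT. Of the 6 tested, 4 fell and 1 rose with TMM (median -1.15): PDGFRB fell 4.04-fold, COL3A1 3.51-fold, PECAM1 3.40-fold and VWF 1.45-fold, CD68 rose 2.79-fold, and COL1A1 was not called. Some of these markers had few reads. COL3A1 had 6 to 15 and VWF 19 to 22 reads per CBS KO library, and KRT20 had 13 to 15 reads per WT library. PTPRC, the general leukocyte marker, had 0 or 1 reads per library. The part of these genes in the results below was not tested. In bulk RNA, fewer cells of a type and less RNA per cell cannot be told apart.

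Mitochondrial synthetase mRNAs were mostly lower in CBS KO cells, while the cytosolic ones split evenly with TMM scaling and leaned lower with library totals, FPKM and TPM. A gene was called when its edgeR adjusted p, over all 13028 genes tested, was under 0.05. All 37 members passed the filter on low counts, and 33 of them were called, 11 higher and 22 lower. Of all genes tested, 77.2% were called, 38.4% higher and 38.9% lower, so a called member was in itself no rarity. Of the 16 mitochondrial synthetases, 13 fell, 2 rose and 1 was not called, with a median log2 fold change of CBS KO over WT of -0.71. Of the 19 cytosolic synthetases, 8 rose, 8 fell and 3 were not called, with a median of -0.03, against a median of -0.01 over all genes. Changes of at least 2-fold were found in 5 mitochondrial and 2 cytosolic synthetases, all of them lower, while 11.5% of all genes were called lower by that much and 12% higher.

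The direction of the small changes depended on how the libraries were scaled. Scaling by the library total moved the median of all genes to -0.36, FPKM moved it to -0.32 and TPM to -0.54 with a pseudocount of 1. Of all called genes, 49.7% were higher with TMM, 28.6% with library totals, 28.4% with FPKM and 18.5% with TPM. Cytosolic synthetases had 1 higher and 14 lower with library totals and with FPKM, and 1 higher and 16 lower with TPM, in place of 8 and 8. Mitochondrial synthetases had 0 higher under each of those, and 14, 15 and 16 lower with library totals, FPKM and TPM. Measured against the medians of all genes, the mitochondrial median lay 0.66 to 0.70 log2 units lower under every scaling compared, and the cytosolic median 0.02 to 0.06 lower. Fold changes below are those with TMM unless another scale is named.

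**Figure D1:**
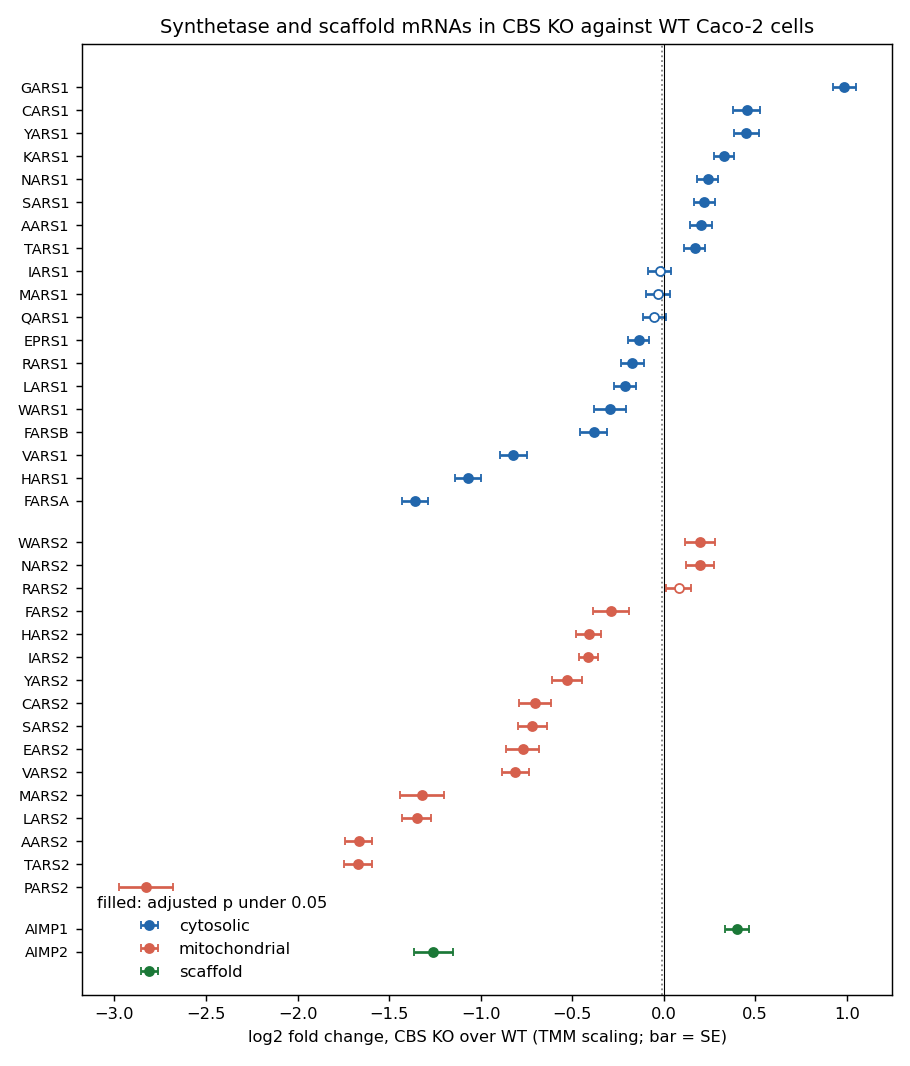
Log2 fold change of CBS KO over WT (horizontal axis) for each of the 37 genes, grouped as cytosolic synthetases, mitochondrial synthetases and scaffolds, with bars for the standard error, filled points for called genes and a dotted line at the median of all genes. Mitochondrial points lie mostly left of 0 and reach -2.83 for PARS2, while cytosolic points lie on both sides, between -1.36 for FARSA and 0.99 for GARS1.

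Levels per transcript length placed the median cytosolic enzyme above the median mitochondrial one in both groups, though the compartments overlapped. The median cytosolic synthetase had 57.2 TPM in CBS KO and 88.5 TPM in WT, and the median mitochondrial synthetase 12.7 TPM in CBS KO and 27.7 TPM in WT. IARS2, which charges isoleucine in mitochondria, had the highest mitochondrial level, 85.6 ± 6.73 TPM in CBS KO and 170.5 ± 3.77 TPM in WT. That was among the highest of the whole set. HARS2 of mitochondria, at 23.7 TPM in CBS KO and 47.1 TPM in WT, also lay above cytosolic WARS1, at 15.2 and 28.4 TPM. GARS1, at 118 ± 10.9 TPM, led the set in CBS KO, against 88.6 ± 5.55 TPM in WT, and its neighbour in that order, SARS1 at 114 ± 5.11 TPM in CBS KO, lay within the spread of GARS1. In WT the order began with IARS2 and QARS1, at 163 ± 3.28 TPM. The lowest members were PARS2, MARS2 and LARS2, with 1.12, 2.47 and 4.70 TPM in CBS KO and 11.99, 9.22 and 16.4 TPM in WT, and AARS2 was as low as LARS2 in CBS KO, at 4.66 TPM. Summed over the compartment, mitochondrial synthetases took 254 to 283 TPM in CBS KO libraries and 578 to 601 TPM in WT libraries, and cytosolic synthetases 1111 to 1248 TPM in CBS KO and 1628 to 1777 TPM in WT. Neither pair of ranges overlapped, on a scale where the median of all genes also lay lower in CBS KO.

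The glycine enzyme gene GARS1, which serves both compartments, rose the most. It had 216, 200.4 and 205 CPM in CBS KO libraries, against 98.0, 105 and 111 CPM in WT libraries. Every CBS KO library lay well above every WT library, the fold change was 1.98 (log2 0.99 ± 0.06, SE, edgeR adjusted p = 2.66e-10), and GARS1 was the only cytosolic synthetase called higher under all 6 scalings, with a log2 change of at least 0.41. YARS1, the tyrosine enzyme, had 122, 113 and 121 CPM in CBS KO and 80.1, 86.5 and 94.7 CPM in WT. CARS1, which charges cysteine, the amino acid that the CBS pathway leads to, had 66.1, 65.0 and 71.5 CPM in CBS KO and 46.4, 47.2 and 54.4 CPM in WT. For both genes the groups did not overlap and the rise was 1.37-fold (edgeR adjusted p = 1.49e-05 for YARS1 and 3.98e-05 for CARS1), but their log2 changes on the TPM scale were -0.13 and -0.16. KARS1, the lysine enzyme and the other gene with a mitochondrial form, had 144, 149.9 and 153 CPM in CBS KO and 118, 117 and 121 CPM in WT, again without overlap. It rose 1.26-fold (edgeR adjusted p = 4.94e-05), and its log2 change was -0.026 with library totals. The asparagine, serine, alanine and threonine enzyme genes NARS1, SARS1, AARS1 and TARS1 rose by 0.17 to 0.24 log2 units, and all of these turned negative with library totals, FPKM or TPM. Among called cytosolic synthetases, 12 changed by less than 1.5-fold, in either direction.

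The CARE element was searched in promoters because ATF4 is the known activator of many of these genes. RefSeq promoter windows on GRCh38.p14, from 250 bases before to 50 bases after the start, were at hand for 32 of the 37 members, and were missing for AARS2, LARS1, VARS1, VARS2 and YARS1. The letters TGATGNAA, on either strand, occurred in 6 of 16 cytosolic windows (37.5%) and in 1 of 14 mitochondrial windows, that of YARS2. Of all 27305 promoters of the same length 3.67% held it, and of those of genes tested 1.70%. The 6 cytosolic matches are shown within 30 bases each, with the match in capitals, because their letters are nearly alike.
AARS1: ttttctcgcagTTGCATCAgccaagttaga
CARS1: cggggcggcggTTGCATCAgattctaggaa
IARS1: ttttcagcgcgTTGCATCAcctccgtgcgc
MARS1: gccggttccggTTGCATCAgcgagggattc
NARS1: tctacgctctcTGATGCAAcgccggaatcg
TARS1: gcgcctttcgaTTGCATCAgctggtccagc
These windows lie at chr16:70289675-70289704 (AARS1), chr11:3057407-3057436 (CARS1), chr9:92293692-92293721 (IARS1), chr12:57488053-57488082 (MARS1), chr18:57621804-57621833 (NARS1) and chr5:33440956-33440985 (TARS1), and each is written 5′ to 3′ on the strand of its gene, which is the minus strand for AARS1, CARS1, IARS1 and NARS1 and the plus strand for MARS1 and TARS1. All 6 matches read TGATGCAA on a strand, and that of NARS1 runs in the opposite direction to the others. A match describes letters and does not show binding. Of the 6 genes, AARS1, CARS1, NARS1 and TARS1 rose, and IARS1 and MARS1, the isoleucine and methionine enzymes, had 123 ± 4.82 and 129.7 ± 2.77 CPM in CBS KO and 125 ± 7.86 and 133 ± 10.4 CPM in WT and were not called. The other 10 cytosolic genes with a window held 3 that rose, 6 that fell and 1 that was not called, and GARS1 was among those without a match. Among all genes tested that had a window, 44.2% of the 181 with a match and 37.9% of the 10478 without were called higher. By general knowledge of the response, 13 of the 19 cytosolic synthetases have been reported as ATF4 targets, and of those 7 rose, 4 fell and 2 were not called, while of the other 6, 1 rose, 4 fell and 1 was not called. These counts hold with TMM, where 38.4% of all genes tested were called higher and 38.9% lower. The contrast between the 13 and the other 6 was not tested. Among the 13, GARS1 alone was higher with library totals, FPKM and TPM, where 9, 9 and 10 were lower, and of the 6 genes with CARE letters 0 were higher and 4, 4 and 5 lower.

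**Figure D2:**
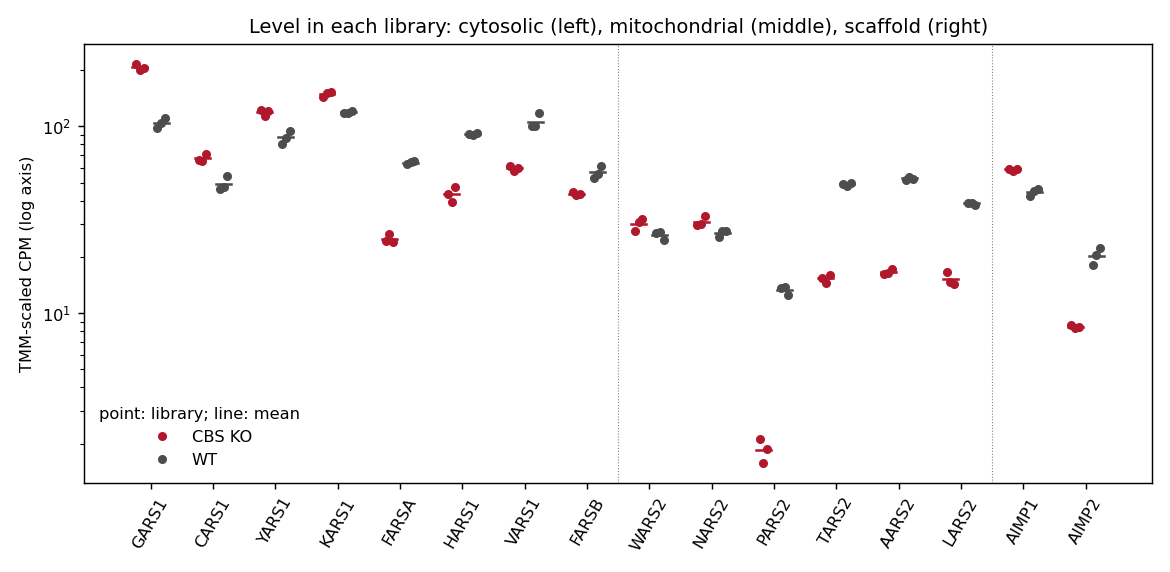
TMM-scaled CPM (vertical log axis) of 16 members, cytosolic on the left, mitochondrial in the middle and scaffolds on the right, with a point per library, a line at the mean of 3 libraries and CBS KO left of WT for each gene. Drawn are both scaffolds and up to 4 synthetases per compartment and direction with the largest called changes, which are as small as 1.15-fold for WARS2 and NARS2. In GARS1 the CBS KO points lie above the WT points, and in PARS2 they lie between 1.58 and 2.13 CPM against 12.6 to 13.8 CPM in WT.

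Phenylalanine and histidine enzyme genes fell the most among cytosolic members. FARSA, which encodes the catalytic alpha subunit of phenylalanyl-tRNA synthetase, had 24.3, 26.5 and 24.0 CPM in CBS KO libraries and 62.6, 64.1 and 65.1 CPM in WT libraries. The CBS KO values were all far below the WT values, 2.57-fold on average (log2 -1.36 ± 0.07, SE, edgeR adjusted p = 3.61e-11). FARSB, the beta subunit of the same enzyme, had 44.3, 42.9 and 43.3 CPM in CBS KO and 53.0, 55.8 and 61.3 CPM in WT, 1.30-fold lower with no overlap (edgeR adjusted p = 0.000138). The subunits assemble in equal number, but their mRNAs moved by unequal amounts. Within each library, the log2 ratio of FARSA to FARSB counts was -0.86, -0.70 and -0.85 in CBS KO and 0.24, 0.20 and 0.09 in WT, a 1.97-fold shift that library-size scaling does not affect (two-sided exact permutation test, p = 0.10, the smallest that 3 against 3 libraries allow).

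HARS1, the cytosolic histidine enzyme, had 43.2, 39.5 and 47.1 CPM in CBS KO and 90.8, 90.3 and 91.7 CPM in WT. Its groups lay far apart, with a 2.1-fold fall (edgeR adjusted p = 7.04e-10). VARS1, the valine enzyme, had 61.5, 57.9 and 60.1 CPM in CBS KO and 100.3, 99.8 and 117 CPM in WT, 1.77-fold lower without overlap (edgeR adjusted p = 2.51e-08). WARS1, the tryptophan enzyme and a known interferon-induced gene, averaged 29.04 ± 3.01 CPM in CBS KO and 35.7 ± 2.85 CPM in WT and fell 1.23-fold (edgeR adjusted p = 0.00561). LARS1, the leucine enzyme and a leucine sensor for mTORC1, fell 1.16-fold, RARS1, the arginine enzyme, 1.13-fold and EPRS1 1.10-fold, and the calls of RARS1 and EPRS1 (edgeR adjusted p = 0.0195 and 0.0408) were lost with DESeq2. FARSA, FARSB, HARS1, VARS1, WARS1, LARS1 and RARS1 were called lower under all 6 scalings.

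Synthetases of the multi-synthetase complex had small changes with TMM scaling. Of the 7 such enzymes in the set, KARS1 rose, EPRS1, LARS1 and RARS1 fell, and IARS1, MARS1 and QARS1 were not called, with log2 changes from -0.21 to 0.33 and a median of -0.05. With library totals and with FPKM 6 of the 7 were called lower, and with TPM all 7 were (log2 -0.78 to -0.25), among them IARS1, MARS1 and QARS1 in each case. QARS1, the glutamine enzyme, had 182 ± 15.4 CPM in CBS KO and 189 ± 3.73 CPM in WT (log2 -0.05 ± 0.06, SE). The 12 cytosolic members outside the complex ranged from -1.36 to 0.99 with TMM. This contrast was put to no test of its own.

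The complex's scaffolds moved in opposite directions on the CPM scale. AIMP1, which binds tRNA and anchors an arm of the complex, had 59.4, 57.7 and 59.1 CPM in CBS KO and 42.5, 44.9 and 46.2 CPM in WT, 1.32-fold higher without overlap (edgeR adjusted p = 3.8e-05), although its log2 change was -0.027 on the FPKM scale and -0.25 on the TPM scale. AIMP2, the core scaffold, had 8.61, 8.35 and 8.46 CPM in CBS KO and 18.0, 20.4 and 22.5 CPM in WT. Its CBS KO values were tightly grouped and all far below WT, 2.39-fold (edgeR adjusted p = 1.65e-08), and it was lower under all 6 scalings. Without regard to library size, the log2 ratio of AIMP1 to AIMP2 counts was 2.79 ± 0.01 in CBS KO and 1.14 ± 0.10 in WT (SD, n = 3 each), a 3.15-fold shift (two-sided exact permutation test, p = 0.10). EEF1E1, known as AIMP3, the remaining small scaffold, had 23.5 ± 2.78 CPM in CBS KO and 24.5 ± 2.16 CPM in WT and was not called (edgeR adjusted p = 0.602).

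PARS2, the mitochondrial proline enzyme, fell more than any other member. It had 2.13, 1.58 and 1.87 CPM in CBS KO, from 26, 18 and 23 reads, and 13.6, 13.8 and 12.6 CPM in WT, from 248, 251 and 230 reads. The groups were widely apart, 7.11-fold (log2 -2.83 ± 0.15, SE, edgeR adjusted p = 3.09e-11), and only 0.438% of all genes tested had a fold change as low or lower. PARS2 lies at chr1:54756898-54764523 on GRCh38. Its annotated transcript has 2 exons, of which 1 holds the coding sequence.

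AARS2 and TARS2, the alanine and threonine enzymes of mitochondria, came next. AARS2 had 16.15, 16.3 and 17.2 CPM in CBS KO and 51.9, 53.7 and 52.1 CPM in WT, 3.17-fold lower (edgeR adjusted p = 4.63e-12). TARS2 had 15.4, 14.5 and 16.1 CPM in CBS KO and 49.1, 47.8 and 49.7 CPM in WT, 3.18-fold lower (edgeR adjusted p = 6.92e-12). In both, replicates differed by far less than the groups did. LARS2, for leucine, had 16.6, 14.6 and 14.3 CPM in CBS KO and 38.9, 39.0 and 38.1 CPM in WT, 2.55-fold lower (edgeR adjusted p = 1.98e-10). MARS2, for methionine, had 5.25, 5.80 and 5.28 CPM in CBS KO and 13.0, 12.7 and 15.0 CPM in WT, 2.50-fold lower (edgeR adjusted p = 3.25e-08). In these genes too, no CBS KO library reached the lowest WT library.

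The remaining mitochondrial genes that fell did so by 1.22- to 1.75-fold. VARS2, EARS2, SARS2 and CARS2, for valine, glutamate, serine and cysteine, fell 1.75-, 1.70-, 1.64- and 1.63-fold, and YARS2, for tyrosine, 1.44-fold. IARS2, the most abundant, averaged 224 ± 3.40 CPM in CBS KO and 298 ± 6.47 CPM in WT and fell 1.33-fold. HARS2, for histidine, had 39.8, 41.8 and 42.8 CPM in CBS KO and 56.1, 55.0 and 54.2 CPM in WT, also 1.33-fold lower (edgeR adjusted p = 2.98e-05), and FARS2, for phenylalanine, fell 1.22-fold (edgeR adjusted p = 0.0134), a call lost with DESeq2 (adjusted p = 0.0619) and, in edgeR, without WT replicate 2 (adjusted p = 0.058). All 13 were lower under each of the 6 scalings. In CPM, all 13 had CBS KO libraries wholly below WT and the other 3 wholly above. Of all genes tested, 79.1% had groups without overlap, 40.1% with CBS KO wholly below and 38.9% wholly above.

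The asparagine, tryptophan and arginine enzymes of mitochondria were not lower with TMM scaling. NARS2 had 29.6, 29.9 and 32.9 CPM in CBS KO and 25.7, 27.4 and 27.6 CPM in WT, and WARS2 had 27.5, 30.6 and 32.0 CPM in CBS KO and 26.8, 27.0 and 24.7 CPM in WT. Both rose 1.15-fold (edgeR adjusted p = 0.0269 and 0.0339), calls that DESeq2 did not make. Both had a log2 change of -0.16 with library totals and were not called there, NARS2 was called lower with FPKM and TPM (-0.24 and -0.46), and WARS2 was called lower with TPM (-0.37). RARS2, the arginine enzyme, mutated in a form of pontocerebellar hypoplasia, had 40.6, 43.4 and 41.2 CPM in CBS KO and 38.1, 39.8 and 40.4 CPM in WT, close but not overlapping, and was not called (edgeR adjusted p = 0.283), but it was called lower with library totals, FPKM and TPM (log2 -0.27, -0.26 and -0.49).

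Promoters of PARS2 and MARS2, which fell strongly and have a single coding exon each, are shown with the letters of factors known to act on genes for mitochondrial proteins. The letters searched, on both strands, were GCGCA and GCGC parted by 1 free base for NRF1, CCGGAAGT for ETS factors such as GABPA, CACGTG for the E-box of MYC and USF proteins, and GAAA and GAAA parted by 2 free bases for interferon-response elements, and none of them contains another. Capitals mark the matches of the NRF1 and ETS letters in PARS2 (chr1:54764474-54764773, minus strand) and of the NRF1 and E-box letters in MARS2 (chr2:197705119-197705418, plus strand), each running from 250 bases before to 50 bases after the start.
PARS2: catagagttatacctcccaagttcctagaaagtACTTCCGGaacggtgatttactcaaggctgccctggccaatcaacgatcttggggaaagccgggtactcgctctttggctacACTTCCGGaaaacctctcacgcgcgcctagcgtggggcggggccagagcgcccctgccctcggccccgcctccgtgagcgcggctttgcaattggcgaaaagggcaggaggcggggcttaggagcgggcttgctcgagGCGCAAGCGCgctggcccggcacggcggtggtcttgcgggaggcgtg
MARS2: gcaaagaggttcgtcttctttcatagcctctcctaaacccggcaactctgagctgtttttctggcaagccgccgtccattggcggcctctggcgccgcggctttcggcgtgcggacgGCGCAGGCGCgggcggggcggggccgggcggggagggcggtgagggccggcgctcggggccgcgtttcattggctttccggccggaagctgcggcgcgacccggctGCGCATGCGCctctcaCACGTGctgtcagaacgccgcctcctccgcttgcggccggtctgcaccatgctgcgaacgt
Of 14 mitochondrial windows, 3 held the NRF1 letters (IARS2, MARS2 and PARS2), 3 the ETS letters (EARS2, HARS2 and PARS2), 3 the E-box (CARS2, EARS2 and MARS2) and 1 the interferon-response letters (EARS2). Of 16 cytosolic windows, 3 held the NRF1 letters, 4 the ETS letters, 1 the E-box and 0 the interferon-response letters. The NRF1 and ETS letters were thus not particular to the mitochondrial members. In promoters of all genes tested, the shares were 11.4% for NRF1, 8.60% for ETS, 10.1% for the E-box and 2.67% for the interferon-response letters, and in all promoters 6.28, 4.44, 7.43 and 3.65%. TARS2 and LARS2, which also fell more than 2-fold, held none of the 5 sets of letters, and no window was at hand for AARS2.

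HARS1 and HARS2 start back to back on chromosome 5, at 140691370 on the minus strand and 140691455 on the plus strand, 85 bases apart, and so share promoter sequence. The window of HARS2 (chr5:140691205-140691504, plus strand) is shown because it covers both starts, with the 2 matches of the ETS letters in capitals, which are the same bases as the matches in the window of HARS1.
HARS2: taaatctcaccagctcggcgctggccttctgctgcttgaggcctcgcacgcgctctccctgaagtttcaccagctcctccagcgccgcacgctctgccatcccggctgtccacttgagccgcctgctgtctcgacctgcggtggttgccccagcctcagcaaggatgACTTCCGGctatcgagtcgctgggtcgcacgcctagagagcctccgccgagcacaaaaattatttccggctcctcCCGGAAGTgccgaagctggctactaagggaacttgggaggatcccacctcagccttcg
Both genes fell, HARS1 by 1.07 log2 units and HARS2 by 0.41, unequal amounts for genes with a shared region. The log2 ratio of HARS1 to HARS2 counts within a library was 0.06 ± 0.12 in CBS KO and 0.72 ± 0.03 in WT (SD, n = 3 each). The counting rule for reads near both starts is not given in the sources used here.

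Matching each cytosolic synthetase with the mitochondrial one for the same amino acid, 17 pairs in all, gave a ratio of counts within each library that library-size scaling does not affect. Length-corrected values can change it, and with TPM or FPKM the median difference was 0.94 log2 units in place of the 0.63 given below. EPRS1 and FARS2 each stand in more than 1 pair, so the pairs are not independent. CBS KO ratios lay wholly above WT ratios in 10 pairs, wholly below in 4 and overlapped in 3, and the median difference was 0.63 log2 units toward the cytosolic gene. Among single genes tested, 79.1% had CPM groups without overlap, so a pair without overlap was in itself no rarity. The share among ratios of other gene pairs was not computed. For each of the 14 pairs without overlap, the two-sided exact permutation p was 0.10, the smallest possible, and 0.121 when adjusted over the 17 pairs, so no pair could pass 0.05.

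The shift toward the cytosolic gene was largest for proline, where the log2 ratio of EPRS1 to PARS2 was 6.75 ± 0.22 in CBS KO and 4.03 ± 0.12 in WT. For alanine, AARS1 to AARS2 was 3.97 ± 0.06 in CBS KO and 2.1 ± 0.10 in WT, and for threonine, TARS1 to TARS2 was 3.44 ± 0.05 in CBS KO and 1.60 ± 0.07 in WT. With TMM scaling most of the shift in these pairs came from the mitochondrial gene, since the cytosolic ones changed by at most 1.15-fold. How a shift divides between its genes depends on the scaling. On the TPM scale, with a pseudocount of 1, EPRS1, AARS1 and TARS1 had log2 changes of -0.63, -0.38 and -0.41. Those of PARS2, AARS2 and TARS2 there were -2.62, -2.09 and -2.09. Methionine, cysteine, leucine, tyrosine and serine pairs shifted by 1.29, 1.16, 1.14, 0.98 and 0.94 log2 units the same way, glutamate by 0.63 and isoleucine by 0.39. The opposite shift was found for phenylalanine with FARSA (-1.07), histidine (-0.67), tryptophan (-0.49) and arginine (-0.25). Valine, asparagine and phenylalanine with FARSB overlapped between groups. VARS1 and VARS2 fell by nearly the same amount, so their log2 ratio was 1.09 ± 0.08 in CBS KO and 1.09 ± 0.12 in WT.

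**Figure D3:**
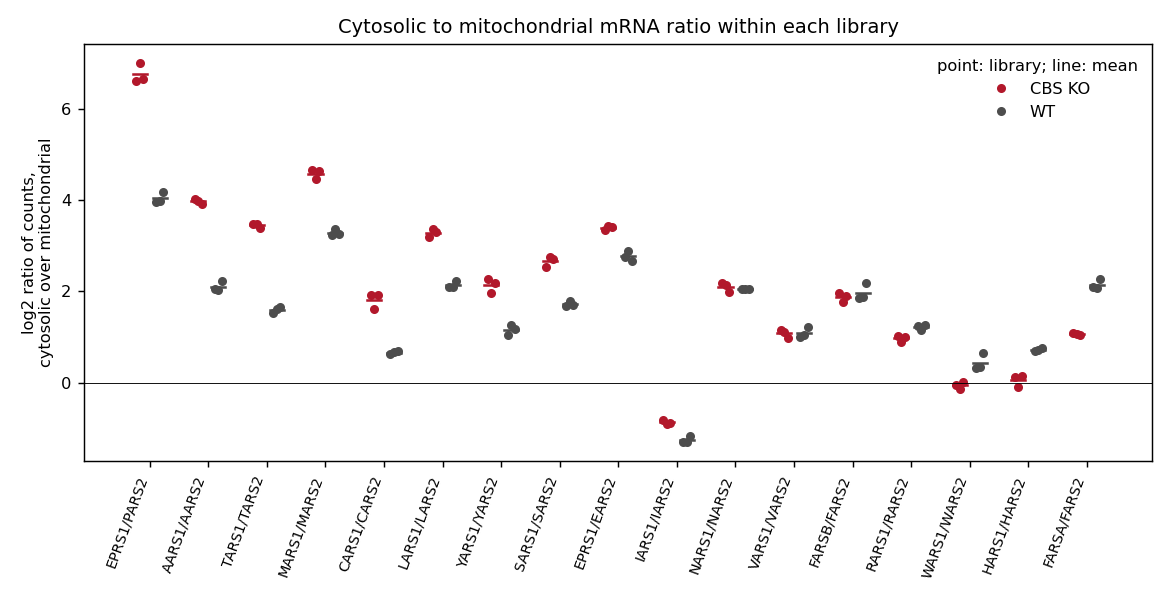
Log2 ratio of cytosolic to mitochondrial counts (vertical axis) for 17 pairs of synthetases that charge the same amino acid, with a point per library, a line at the mean and CBS KO left of WT. Pairs run from the largest shift toward the cytosolic gene, EPRS1/PARS2 at 2.71, to the largest the other way, FARSA/FARS2 at -1.07.

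The number of coding exons was only weakly related to log2 change within each compartment. MARS2 has 1 exon, and PARS2 and MARS2 are the members with 1 coding exon. Among the 736 genes tested that have 1 coding exon, 42.7% fell, with a median log2 change of -0.08, against 38.7% and -0.01 among the 12215 with more. PARS2 and MARS2 had log2 changes of -2.83 and -1.32. Whether gene structure had a part in these falls was not tested. Across the 16 mitochondrial synthetases, Spearman's rho of log2 change with the number of coding exons was -0.09, with mRNA length -0.41 and with TPM in WT 0.36, as descriptions over genes that share libraries. Across the 19 cytosolic synthetases, the same 3 values were -0.007, -0.08 and 0.23. Both structural classes were mostly lower among mitochondrial members, with 7 of 9 in class I and 6 of 7 in class II. Among cytosolic members, leaving out EPRS1, which holds both classes, class I had 2 higher and 4 lower of 9. Cytosolic class II had 6 higher and 3 lower of 9. These are calls with TMM, and the contrast between classes was not tested.

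**Figure D4:**
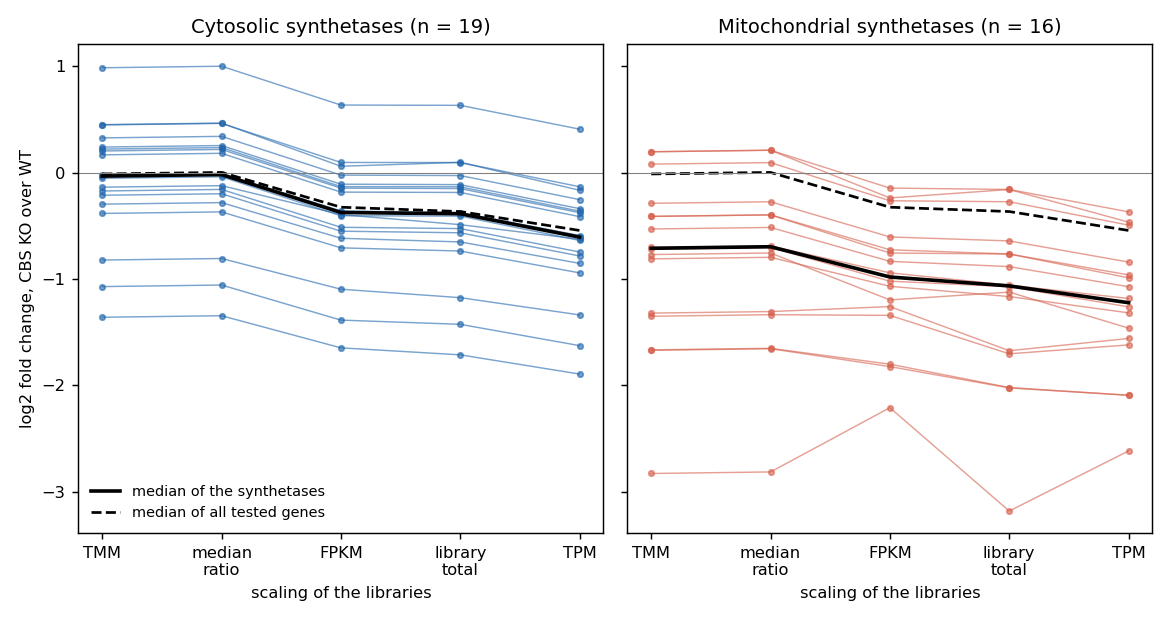
Log2 fold change of CBS KO over WT (vertical axis) under 5 scalings (horizontal axis), with a thin line per synthetase, a thick line at the compartment's median and a dashed line at the median of all genes tested. The cytosolic median runs along the dashed line, and the mitochondrial median stays 0.66 to 0.70 below it.

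Genes around the synthetases were described from lists chosen with earlier results of these data known. The GCN2-ATF4 amino acid response had 17 of 28 tested genes higher, 6 lower and 5 not called, with a median of 0.73. With library totals 15 were higher and 11 lower, with FPKM 15 and 10, and with TPM 12 and 11 (median 0.07). Of all genes tested, 38.4% were higher and 38.9% lower with TMM. With library totals 2966 of 13028 were higher and 7403 lower. With FPKM the numbers were 2722 and 6876 of 11880, and with TPM 1878 and 8294 of 12274. DDIT3, the CHOP transcription factor, had 118 ± 10.3 CPM in CBS KO and 15.4 ± 1.57 CPM in WT, 7.68-fold higher, and DDIT4, an mTORC1 inhibitor, 747 ± 64.4 CPM in CBS KO and 116 ± 5.30 CPM in WT, 6.43-fold higher. GCN1, a ribosome-bound activator of GCN2, fell 1.67-fold, and PSPH, the last enzyme of serine synthesis, 1.59-fold. ATF4 itself, named after its values were seen, rose 2.57-fold, and its log2 change stayed between 0.72 and 1.37 over the scalings, while EIF2AK4 fell 1.55-fold. The fold change of ATF4 was above that of each cytosolic synthetase in the set.

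Other mitochondrial tRNA and translation genes also leaned lower. Of 17 genes that process or modify mitochondrial tRNA, 15 fell and 2 rose, with a median of -0.66, and of 16 mitochondrial translation factors 10 fell, 2 rose and 4 were not called, with a median of -0.35. The translation factors had 14 lower and 0 higher with library totals, 13 and 1 with FPKM, 15 and 0 with TPM, and 8 and 2 with DESeq2, and the tRNA genes 15 to 16 lower and 1 higher with library totals, FPKM and TPM and 12 lower and 2 higher with DESeq2. Of all genes tested, 38.9% fell with TMM, 7403 of 13028 with library totals, 6876 of 11880 with FPKM and 8294 of 12274 with TPM. With DESeq2, 4673 of 13028 fell. TRMT61B, a mitochondrial tRNA methyltransferase, fell 3.36-fold and OSGEPL1, which makes the t6A modification, 3.08-fold, while YRDC, which makes the precursor of t6A in both compartments, rose 2.37-fold and MTO1, a wobble-uridine modifier, 1.18-fold. MTRFR, a ribosome rescue factor, fell 3.37-fold and TSFM, the elongation factor EF-Ts, 2.87-fold. MTRF1L, a release factor, rose 1.39-fold and MTIF3, an initiation factor, 1.26-fold. On the TPM scale the log2 changes of MTO1 and MTIF3 were -0.26 and -0.21.

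Genes for nuclear and cytosolic tRNA maturation were lower more often than higher too. Of 35 genes for cytosolic tRNA modification, 20 fell, 5 rose and 10 were not called (median -0.45), of 19 for nuclear tRNA processing and export 12 fell, 5 rose and 2 were not called (median -0.44), and of 21 for RNA polymerase III, which transcribes tRNA genes, 13 fell, 4 rose and 4 were not called (median -0.35). With library totals, FPKM and TPM the modification genes had 26, 27 and 32 lower and 1 higher each, the processing and export genes 14, 14 and 16 lower and 2, 3 and 2 higher, and the RNA polymerase III genes 16, 16 and 17 lower and 3 higher each. Lower calls over all genes also grew, from 38.9% with TMM to 7403 of 13028, 6876 of 11880 and 8294 of 12274 genes. DUS2, a dihydrouridine synthase, fell 3.69-fold, and WDR4, a subunit of the m7G tRNA methyltransferase, 3.46-fold, while TYW3, of wybutosine synthesis, rose 1.80-fold and TRMT10A, a guanosine methyltransferase, 1.32-fold, the last with a log2 change of -0.15 on the TPM scale. XPOT, the export receptor for tRNA, had 269 ± 10.4 CPM in CBS KO and 121 ± 12.5 CPM in WT and rose 2.21-fold, and SSB, the La protein that binds new tRNA, rose 1.80-fold. ELAC1, a tRNA-trimming nuclease, had 6, 2 and 6 reads in CBS KO and 46, 49 and 58 reads in WT, and RPP25, an RNase P subunit, fell 3.45-fold. Within RNA polymerase III, POLR3D rose 2.76-fold and POLR3G 2.38-fold, while POLR3B fell 3.64-fold. Of 6 synthetase partners and proofreading factors, 2 rose and 2 fell with TMM, and 0 rose and 3 fell with library totals, FPKM and TPM. SEPSECS, which completes selenocysteinyl-tRNA, and DTD1, a D-aminoacyl-tRNA deacylase, rose 1.37- and 1.34-fold, with log2 changes of -0.11 each on the TPM scale. AARSD1, an alanyl-tRNA editing protein, fell by 0.58 log2 units, and DTD2, another deacylase, by 0.47.

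**Figure D5:**
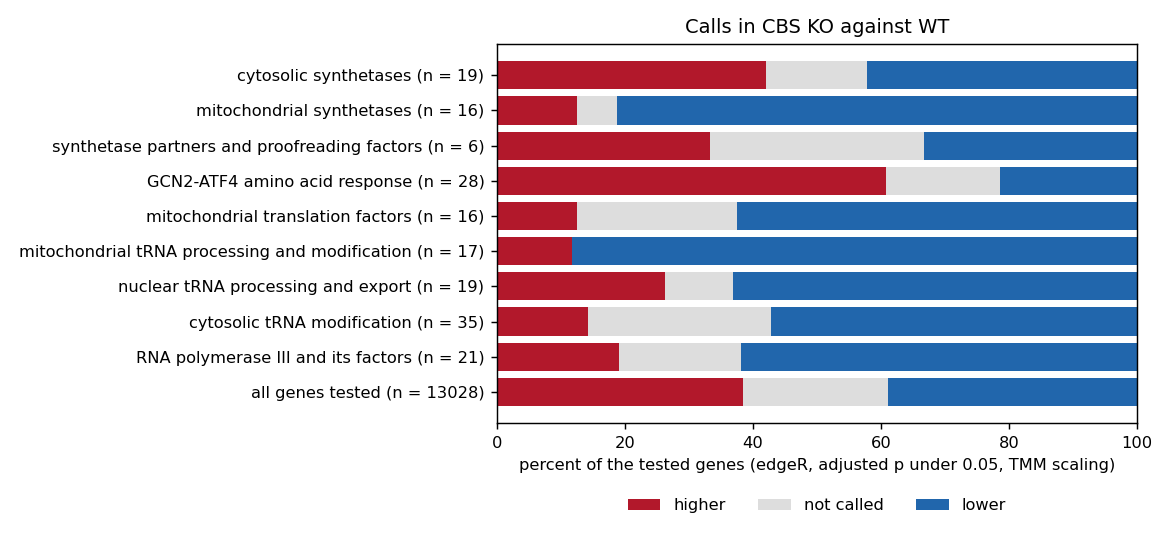
Percent of tested genes called higher, not called and called lower in CBS KO against WT (horizontal axis) for both groups of synthetases, 7 lists of related genes and all genes tested. Among the sets drawn, lower calls take the largest shares in mitochondrial tRNA processing and modification, at 15 of 17 genes, and mitochondrial synthetases, at 13 of 16, and higher calls in the GCN2-ATF4 list, at 17 of 28.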

How the data were processed

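RNA of 3 CBS KO and 3 WT libraries was compared, grouped by the titles. The authors deposited estimated counts per gene, not normalised, with 7.12 to 7.43% of the values in each library not whole, and FPKM and TPM values of the same genes, per the file headers. Per the submitters' processing notes, cutadapt 1.9, HISAT2 2.2.1, StringTie 2.1.6, DESeq2, edgeR and the build GRCh38 were used. How strand and multiply matching reads were handled remains not given in the sources used here.

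Estimated counts were rounded, filtered by filterByExpr (13028 of 16781 genes kept), scaled with TMM and tested with edgeR's robust quasi-likelihood test (edgeR 4.0.16, limma 3.58.1, R 4.3.3), with Benjamini-Hochberg adjustment over all genes and no covariate. Alternatives were library totals, median-ratio factors, no filter, a mean of at least 5 CPM, DESeq2 1.42.0, a replicate block, limma on log2(FPKM + 1), log2(TPM + 1) and log2(TPM + 0.1) for genes with a value of at least 1 in 3 libraries, and leaving out each library. On those log scales a pseudocount understates changes of low genes. The 6 scalings compared were TMM, library totals, median-ratio factors and the 3 log scales. Each SE of a log2 fold change was the size of that change divided by the square root of the edgeR test's F statistic. Ratios of genes used log2 counts within a library. Tested on simulated counts of 12918 genes for CBS KO over WT, the test found 73.1% of the 1.5-fold, 94.0% of the 2-fold and 100% of the 4-fold changes put in, and made 11 false calls. Only 67, 67 and 66 genes were changed by these amounts, equally up and down, with the same fixed dispersion for every gene. In the real data 77.2% of genes were called. The simulation does not cover scaling under such wide change, so its rates do not carry over to the calls made here.

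Members and lists were chosen with earlier results of these data known. All 37 members were accounted for, and values per library were given for up to 4 called members per compartment and direction with the largest change and no overlap, for both scaffolds and for members the ratios turn on, and from each other list up to 2 called genes per direction. Exons were taken from GENCODE transcripts, and starts and promoters from RefSeq. No library pair agreed within sampling noise (chi-square per gene of at least 2.08 within groups).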

Additional observations from a re-analysis of the deposited data

How the results depend on the processing

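Mitochondrial synthetases called lower stayed within 1.5 times of 13 under every alternative run. Cytosolic synthetases called higher numbered 1 in place of 8 with library totals, FPKM and both TPM scales, and those called lower 14 with library totals and FPKM and 16 with both TPM scales. Mitochondrial synthetases called higher numbered 0 in place of 2 with library totals, no filter, DESeq2, FPKM and both TPM scales, and 0 to 2 on leaving out 1 library (0 without WT replicate 1, WT replicate 2 or CBS KO replicate 3). The cytosolic median was -0.39 with library totals, -0.070 with no filter, -0.37 with FPKM and -0.61 with either TPM pseudocount, and -0.074 to 0.024 on leaving out 1 library, positive without WT replicate 3. The mitochondrial median was -1.06, -0.75, -0.98, -1.22 and -1.27 with library totals, no filter, FPKM and TPM with pseudocounts of 1 and 0.1, and -0.75 to -0.67 on leaving out 1 library. The median pair difference was 0.94 with TPM or FPKM and 0.58 to 0.69 on leaving out 1 library. Log2 changes turned negative with library totals, FPKM, TPM + 1 and TPM + 0.1 for AARS1 (-0.15, -0.14, -0.38, -0.38), KARS1 (-0.026, -0.022, -0.25, -0.25), NARS1 (-0.11, -0.11, -0.34, -0.34), SARS1 (-0.13, -0.13, -0.36, -0.36), TARS1 (-0.19, -0.18, -0.41, -0.42), NARS2 (-0.16, -0.24, -0.46, -0.48), RARS2 (-0.27, -0.26, -0.49, -0.51) and WARS2 (-0.16, -0.14, -0.37, -0.39), with FPKM and TPM for AIMP1 (-0.027, -0.25, -0.26), and with TPM for CARS1 (-0.16, -0.17) and YARS1 (-0.13, -0.13). On leaving out 1 library, IARS1 ranged from -0.067 to 0.024, MARS1 from -0.089 to 0.025, FARSB to FARS2 from -0.15 to 0.0078 and VARS1 to VARS2 from -0.053 to 0.061, each positive without WT replicate 3, and VARS1 to VARS2 was also positive without CBS KO replicate 3 (0.043), with TPM (0.019) and with FPKM (0.018). The cause of these changes was not tested. Replicate numbers did not pair libraries (correlations of deviations 0.06, 0.01 and 0.03), and the replicate block gave 10044 called genes in place of 10060 and lost the call of EPRS1 (edgeR adjusted p = 0.0519). PARS2, with 18 to 26 reads per CBS KO library, is the member whose level depth limits most.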
